A study of Rattus norvegicus with 6 samples.

Results

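The fibroblast growth factors (FGFs), the platelet-derived growth factors (PDGFs) and their receptors were followed in bone cells that had attached to either of 2 proteins. Rows of the array table were taken where the platform annotation gave exactly 1 symbol made of Fgf or Fgfr and a number, a symbol that begins with Pdgf, or Fgfrl1. The rule found 34 of the 14506 genes named by the table, each with 1 row: 8 receptors, 18 FGF ligands, 4 PDGF ligands and 4 FGFs that stay inside the cell (Fgf11 to Fgf14). The cells were extracted from the long bones of newborn Sprague Dawley rats, 2 to 5 days old, in medium with albumin and HEPES buffer, and the labels name no genetic change and no drug in either group. The labels describe the 2 coatings as binding different multinucleated cells positive for TRAP, the acid phosphatase of osteoclasts. The 3 PT arrays (replicates 1, 2 and 4) hold cells that bound mouse prothrombin, the precursor of the clotting protease thrombin. The 3 OPN arrays (replicates 2, 3 and 4) hold cells that bound bovine milk osteopontin, an acidic phosphoprotein of bone matrix. Whether replicates came from separate animals is not given in the sources used here, so p-values measure the spread between these arrays, which may be technical.

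FGF receptors and PDGF receptors are cell-surface tyrosine kinases that pair up when a ligand binds and pass the signal on through the Ras and MAP kinase cascade, phospholipase C gamma and PI3 kinase. Most FGFs act near their source and need heparan sulfate chains as a co-factor, whereas the endocrine FGFs use Klotho proteins instead. PDGFs are dimers, and their receptors mark and drive mesenchymal cells such as fibroblasts, pericytes and osteoblast precursors. In bone, FGF receptors act in cartilage, in osteoblasts and in the osteocytes that secrete Fgf23.

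Most receptors and PDGF ligands rose on OPN, and no FGF ligand passed the test. Of the 8 receptors 6 rose (75%), of the 4 PDGF ligands 3 rose, and of the 18 FGF ligands and the 4 intracellular FGFs 0 rose or fell. In all, 9 of 34 genes rose (26.5%) and 0 fell, where 5.05% of the 29215 rows of the table were called higher and 0.77% lower, and where 7.62% of the named genes were called higher and 1.12% lower. Rose and fell are used of genes with an adjusted p below 0.05 in limma's test on log2(signal + 16), with p-values adjusted across the whole table after Benjamini and Hochberg. No member had an unadjusted p below 0.05 with a lower value on OPN (0 of 34). The median log2 difference, OPN minus PT, was 0.99 over the receptors, 0.73 over the PDGF ligands and 0.04 over the FGF ligands, beside 0.04 over all named genes. The FGF ligand median was -0.03 when arrays were scaled to equal medians or quantile normalised, beside -0.03 and -0.02 over all named genes. Receptors and ligands of both families together had 6 of 8 and 3 of 22 genes higher, and the counts are a description with no test between them.

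**Figure D1:**
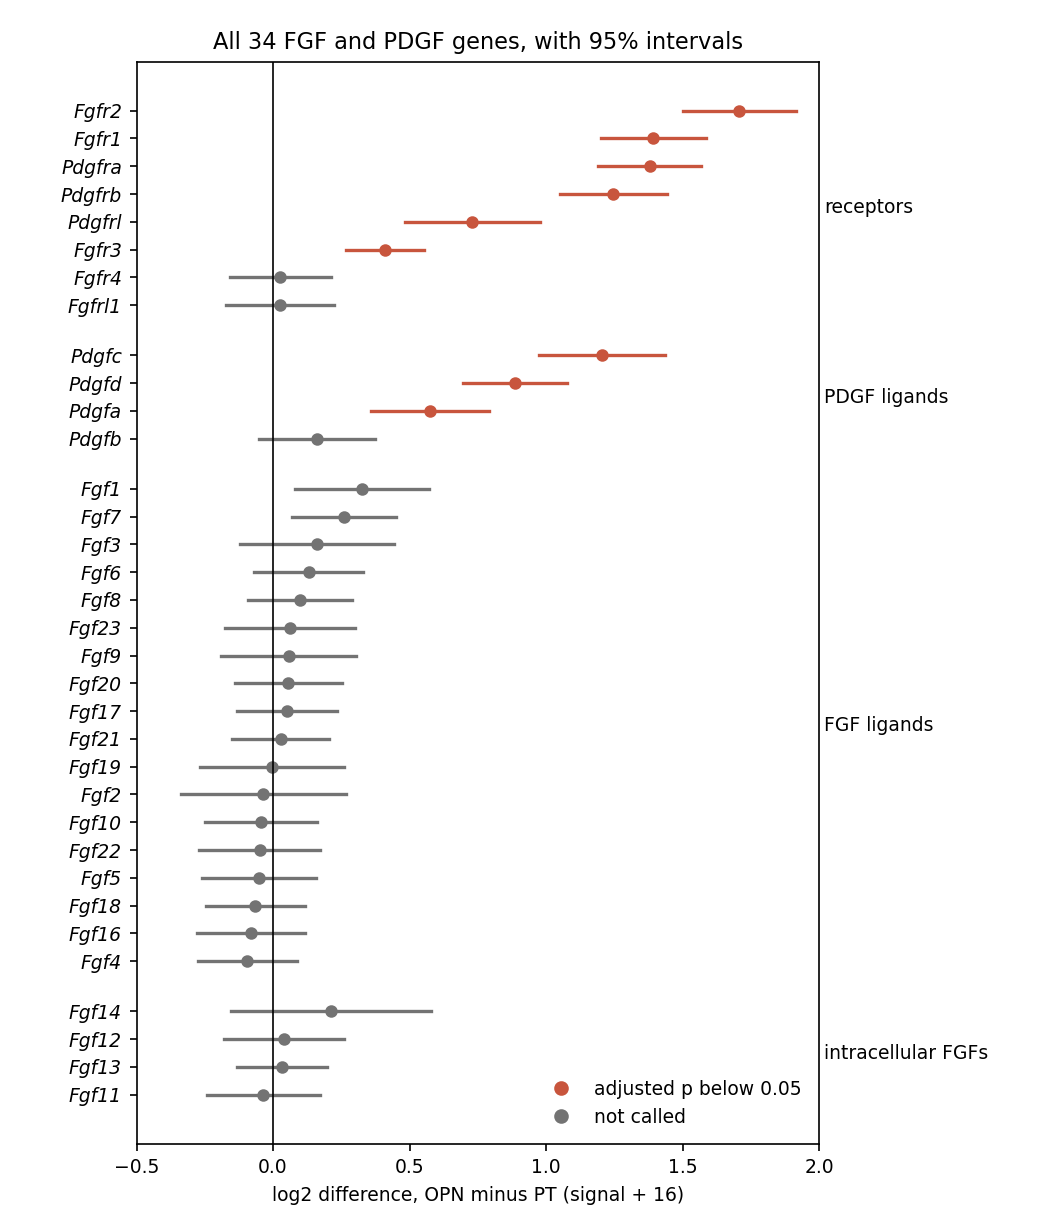
Log2 difference between OPN-adherent and PT-adherent cells, on the log2(signal + 16) scale, for each of the 34 genes grouped by role. Points are estimates from 3 arrays per group, lines are 95% intervals, and colour marks the 9 genes with an adjusted p below 0.05; all 9 lie to the right of 0 among receptors and PDGF ligands.

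Signals are linear PLIER values, PLIER being a method that combines the probes of a probe set into 1 number. Array medians ran from 207.8 to 231.4 units, and signals of the 34 genes from 58.4 to 693. Calls of signal over background were not used here, so a dim row carries an unknown share of background. Having 3 arrays a group limits how precise each value is. Signals of different probe sets cannot be compared as RNA levels, and only differences between coatings are read below. The cells are a mixture, in which fewer cells of a type and less RNA per cell cannot be told apart.

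Among the FGF receptors, Fgfr2 and Fgfr1 rose most. Fgfr2, whose splice forms serve epithelial and mesenchymal cells and which acts in osteoblast precursors, gave 179.9, 154 and 171 units on PT replicates 1, 2 and 4 and 606, 628 and 527 on OPN replicates 2, 3 and 4. The lowest OPN array thus stood well above the highest PT array. The difference was 3.27-fold on the scale with the offset of 16 (log2 1.71, SE 0.09, adjusted p = 9.71e-06 in limma's test). Fgfr1, the most widely made FGF receptor of mesenchymal cells, gave 247, 248 and 222 units on PT and 672, 693 and 597 on OPN. Here too the groups lay far apart, with a 2.63-fold difference (log2 1.39, SE 0.08, adjusted p = 1.94e-05).

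Fgfr3, a brake on growth plate cartilage, rose by much less. Its signals were tight within each group, at 231, 226 and 233 units on PT and 315, 311 and 307 on OPN, without overlap. The difference was 1.33-fold (log2 0.41, SE 0.06, adjusted p = 0.00540).

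The other FGF receptors did not pass. Fgfr4, best known from liver and muscle, gave 301, 260.2 and 255 units on PT and 285, 274 and 272 on OPN, so the OPN arrays lay within the PT range. Its log2 difference was 0.03, with a 95% interval from -0.16 to 0.21 (adjusted p = 0.912). Fgfrl1, a receptor-like protein without a kinase domain, gave 309, 298 and 289 units on PT and 309.9, 334 and 271 on OPN, with the groups overlapping. Its log2 difference was 0.03, with a 95% interval from -0.17 to 0.23 (adjusted p = 0.923). Both of these small differences turned below 0 when the arrays were scaled to equal medians or quantile normalised.

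All 3 PDGF receptor genes of the table rose. Pdgfra, the kinase that binds most PDGF dimers and marks mesenchymal precursors, gave 162, 138 and 141 units on PT and 399.7, 433 and 392 on OPN. The groups did not overlap, and the difference was 2.60-fold (log2 1.38, SE 0.08, adjusted p = 1.94e-05). Pdgfrb, the kinase of pericytes and fibroblasts that binds PDGF-B and PDGF-D, gave 208, 192 and 186 units on PT and 498, 523 and 439.9 on OPN. It was 2.37-fold higher (log2 1.25, SE 0.09, adjusted p = 4.65e-05), again with the groups apart. Pdgfrl, a protein that resembles the outer part of a PDGF receptor, gave 128, 99.3 and 121 units on PT and 196, 228 and 185 on OPN. Its groups did not overlap either, and the difference was 1.66-fold (log2 0.73, SE 0.11, adjusted p = 0.00439).

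**Figure D2:**
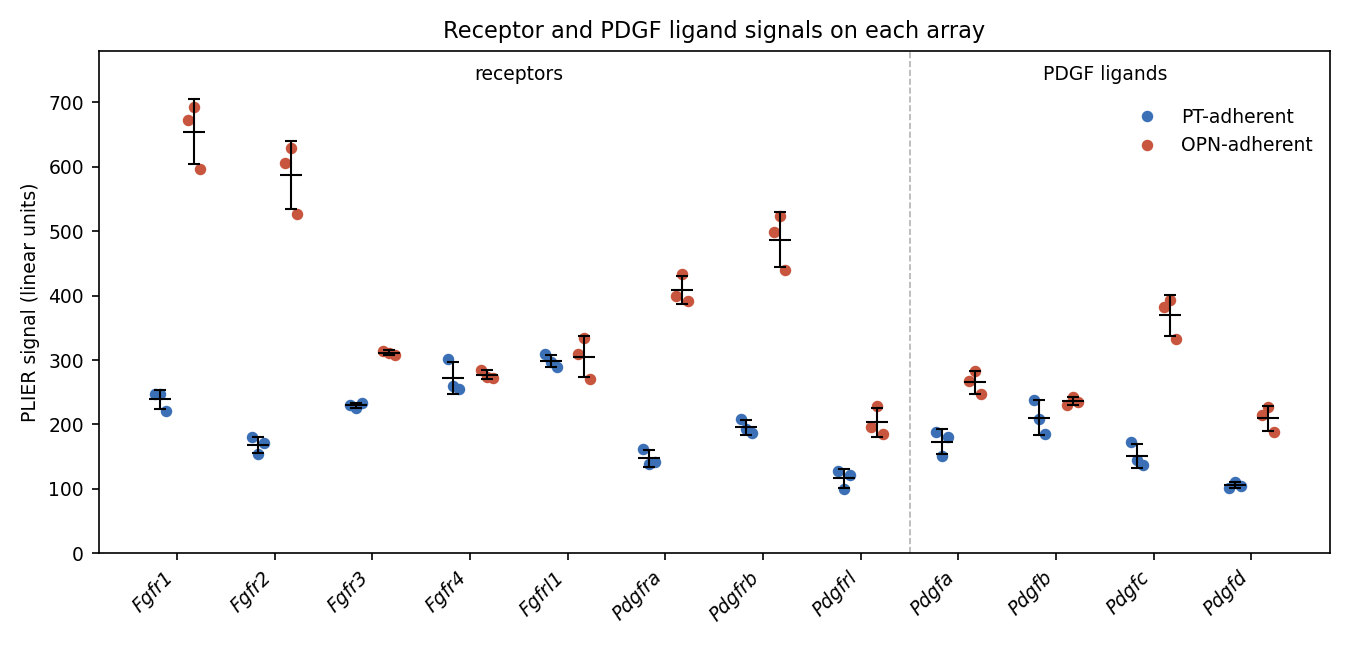
PLIER signal in linear units on each array for the 8 receptors (left of the dashed line) and the 4 PDGF ligands (right). Points are single arrays, the horizontal mark is the mean and the bar 1 SD (n = 3); the OPN arrays lie above the PT arrays for 9 of the 12 genes and overlap them for Fgfr4, Fgfrl1 and Pdgfb.

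Of the PDGF ligands, Pdgfc and Pdgfd, which are secreted with a CUB domain that proteases must remove, rose most. Pdgfc gave 172, 145 and 137 units on PT and 382, 394 and 333 on OPN. Every OPN array was above every PT array, by 2.31-fold between the groups (log2 1.21, SE 0.10, adjusted p = 0.000156). Pdgfd gave 102, 111 and 105 units on PT and 214, 227 and 189 on OPN, a 1.85-fold difference (log2 0.89, SE 0.08, adjusted p = 0.000308). Pdgfa, which signals through the alpha receptor, gave 188, 151 and 181 units on PT and 267, 283 and 247 on OPN. It rose 1.49-fold without overlap of the groups (log2 0.58, SE 0.09, adjusted p = 0.00756). Pdgfb, the ligand of platelets and endothelium that recruits pericytes, gave 239, 208 and 185 units on PT and 231, 243 and 234 on OPN. The groups overlapped, with OPN replicate 3 above every PT array and the other OPN arrays within the PT range, and the log2 difference was 0.16 with a 95% interval from -0.05 to 0.37 (adjusted p = 0.443).

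The promoters of members that rose together are shown for the 4 with the largest differences among those with an entry in the RefSeq promoter table (GRCr8), from 250 bases before to 50 bases after the annotated start. They are Fgfr2 (chr1:194280865-194281164, minus strand), Pdgfra (chr14:33408467-33408766, minus strand), Pdgfc (chr2:168614918-168615217, plus strand) and Pdgfd (chr8:11773258-11773557, plus strand). Each reads 5′ to 3′ along its gene, and capitals mark matches on either strand to 4 motifs, the GC box GGGCGG, the TATA box TATAAA, the CCAAT box CCAAT and the AP-1 motif TGANTCA, none of which overlapped another here.
Fgfr2: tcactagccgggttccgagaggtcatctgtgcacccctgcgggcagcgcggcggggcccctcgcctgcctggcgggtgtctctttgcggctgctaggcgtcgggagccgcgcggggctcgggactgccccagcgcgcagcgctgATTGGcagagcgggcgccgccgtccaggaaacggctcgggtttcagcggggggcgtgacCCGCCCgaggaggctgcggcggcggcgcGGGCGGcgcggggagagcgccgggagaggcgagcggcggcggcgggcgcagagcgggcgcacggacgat
Pdgfra: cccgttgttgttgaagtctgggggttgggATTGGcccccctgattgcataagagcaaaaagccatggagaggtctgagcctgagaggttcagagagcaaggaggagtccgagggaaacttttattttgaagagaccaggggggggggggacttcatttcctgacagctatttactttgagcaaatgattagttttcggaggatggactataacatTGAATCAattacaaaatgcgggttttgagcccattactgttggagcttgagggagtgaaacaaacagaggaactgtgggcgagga
Pdgfc: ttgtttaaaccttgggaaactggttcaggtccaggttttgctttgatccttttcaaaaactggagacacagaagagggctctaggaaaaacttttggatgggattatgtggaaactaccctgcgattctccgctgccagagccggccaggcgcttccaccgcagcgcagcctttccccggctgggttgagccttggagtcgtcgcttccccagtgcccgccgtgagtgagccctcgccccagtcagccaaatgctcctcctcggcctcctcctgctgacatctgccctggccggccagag
Pdgfd: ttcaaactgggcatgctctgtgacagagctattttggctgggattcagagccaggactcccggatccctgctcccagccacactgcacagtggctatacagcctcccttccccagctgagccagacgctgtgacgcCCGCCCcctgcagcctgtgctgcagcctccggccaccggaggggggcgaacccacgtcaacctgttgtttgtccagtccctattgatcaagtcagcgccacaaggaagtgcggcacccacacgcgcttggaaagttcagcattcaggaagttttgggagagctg
Fgfr2 held 2 GC boxes and 1 CCAAT box in a window of 77.7% G and C, and Pdgfra held 1 CCAAT box and 1 AP-1 motif at 48% G and C. Pdgfd held 1 GC box, and the Pdgfc window held none of the 4 motifs. The table had 29 windows for 27 of the 34 genes, of which 18 held a GC box, 12 a CCAAT box, 4 a TATA box and 2 an AP-1 motif. Fgfr1 and Pdgfrb had no window. A GC box was held by 4 of the 6 windows of called genes and by 8 of the 14 windows of FGF ligands, which were not called. The median G and C content was 60% over the 29 windows and 51.7% over all windows. Of all 33469 windows in the table, 33.1% held a GC box, 37.5% a CCAAT box, 14.2% a TATA box and 7.33% an AP-1 motif. These matches describe letters in the window and are not binding sites.

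The FGF ligands showed no call in either direction (0 of 18 in limma's test), and 2 of them, Fgf1 and Fgf7, had an unadjusted p below 0.05. Fgf1, which binds all FGF receptors, gave 88.0, 78.6 and 69.5 units on PT and 115, 106 and 88.0 on OPN. The highest PT and the lowest OPN array were nearly equal, and the log2 difference of 0.33 had a 95% interval from 0.08 to 0.57 (adjusted p = 0.144). Fgf7, a stromal factor that acts on epithelium through a splice form of Fgfr2, gave 136, 128 and 156 units on PT and 166, 168 and 177 on OPN. The OPN arrays stood just above the PT arrays, with a log2 difference of 0.26 and a 95% interval from 0.07 to 0.45 (adjusted p = 0.136). These are the only FGF ligands whose arrays did not overlap between coatings, a separation that 16.3% of all rows had with OPN above PT and 7.4% with OPN below. Among the 14506 named genes 3138 had it with OPN above and 1272 with OPN below. Over the 34 genes 11 were separated with OPN above and 0 with OPN below.

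The other 16 FGF ligands had overlapping arrays, log2 differences between -0.10 and 0.16, and an adjusted p of at least 0.524. Their 95% intervals together reached from -0.34 to 0.44, so that each interval stayed below the differences measured for Fgfr1, Fgfr2, Pdgfra and Pdgfrb. Their signals ran from 95.1 to 427 units with an unknown share of background, so these intervals do not bound the change in RNA. Fgf2, a growth factor held in bone matrix, had 164 ± 37.2 units on PT and 157 ± 7.52 on OPN (SD, n = 3). Fgf18, an osteogenic factor of the growth plate and periosteum, had 258 ± 20.3 units on PT and 246 ± 10.8 on OPN (SD, n = 3). Fgf9, which acts on cartilage and early bone, had 141 ± 20.5 and 147 ± 13.2 units (SD, n = 3). Fgf23, the phosphate-regulating hormone of osteocytes, had 235 ± 27.2 units on PT and 246 ± 24.6 on OPN (SD, n = 3), and its log2 difference of 0.06 was below 0 after scaling to equal medians or quantile normalisation. Fgf22, which acts in the forming of synapses, gave 427, 425 and 349 units on PT and 411, 359 and 386 on OPN, with the groups mixed. The intracellular Fgf11 to Fgf14, which bind sodium channels and not FGF receptors, had log2 differences from -0.04 to 0.21 and overlapping arrays.

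By array, the median of the centred log2 values of the 8 receptors lay between -0.60 and -0.39 on PT and between 0.37 and 0.63 on OPN. For the PDGF ligands the values lay between -0.42 and -0.30 on PT and between 0.25 and 0.46 on OPN. For the FGF ligands the coatings overlapped, from -0.07 to 0.11 on PT and from -0.03 to 0.08 on OPN. Within OPN, replicate 4 gave the lowest signal for 9 of the 9 called genes and replicate 3 the highest for 8 of them. Over all rows called higher, replicate 4 was the lowest OPN array in 57.3% and replicate 3 the highest in 57.6%. The array medians were 231, 227 and 218 units for OPN replicates 2, 3 and 4. Replicate 4 thus had the lowest OPN median as well as the lowest signals, while the highest median was that of replicate 2 and not of replicate 3. Within PT, replicate 1 had the highest median (222 units) and the highest signal for 6 of the 9 called genes. PT replicate 2 had the lowest median (208 units) and the lowest signal for 5 of them. Among all rows called higher, the highest PT array was replicate 1 in 36.8% and replicate 4 in 46.4%. PT replicate 2 was the lowest PT array in 47.4% of these rows. The part of array brightness in this order was not tested.

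**Figure D3:**
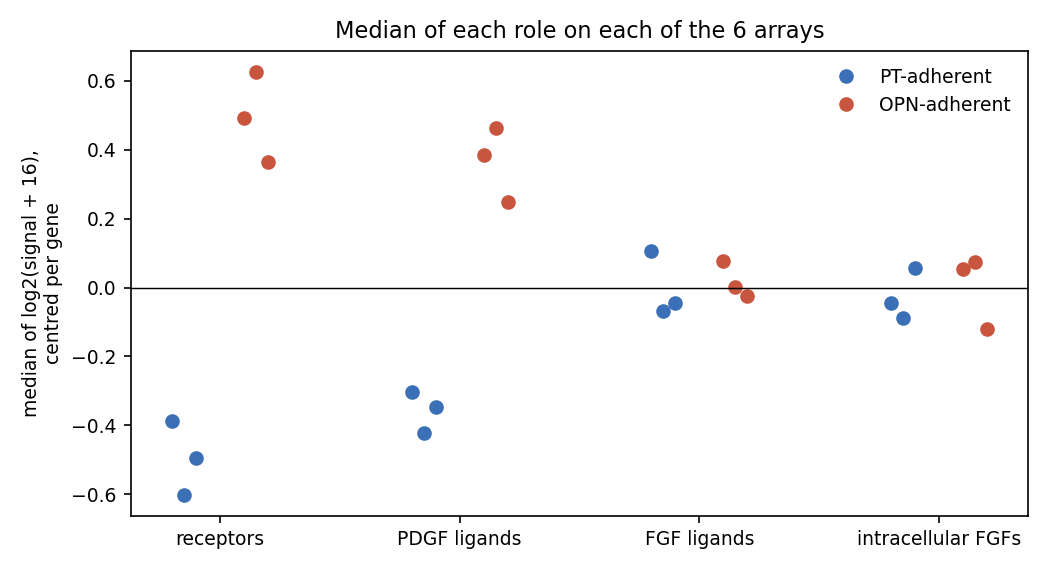
Median over the genes of each role of log2(signal + 16) after centring each gene on its mean, for each of the 6 arrays. Points are arrays; PT and OPN points are separate for receptors and PDGF ligands and mixed for the FGF ligands and the intracellular FGFs.

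Ratios within an array are given for their change between coatings only, since the signals of different probe sets cannot be compared as RNA levels. The pairs were picked with their differences known and so with no test. The log2 ratio of Fgfr1 to Fgfr4 within an array was -0.18 ± 0.10 on PT and 1.19 ± 0.10 on OPN (SD, n = 3), a change of 1.37. The ratio of Fgfr2 to Fgfr1 moved from -0.47 ± 0.15 to -0.15 ± 0.020 (SD, n = 3), a change of 0.31. The ratio of Pdgfra to Pdgfrb moved less, from -0.38 ± 0.05 to -0.24 ± 0.07 (SD, n = 3), a change of 0.13. The ratio of Pdgfc to Pdgfb moved from -0.44 ± 0.04 to 0.61 ± 0.11 (SD, n = 3), a change of 1.05.

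Of the 7 pathway lists, the one with the highest median difference was that of the proteins that carry heparan sulfate, whose chains present FGFs to their receptors. Of 11 measured core proteins 7 rose and 0 fell, and their median log2 difference was 0.40. The syndecan Sdc2 had 132 ± 5.19 units on PT and 953 ± 88.5 on OPN (SD, n = 3), a 6.55-fold difference. The glypicans Gpc1 and Gpc4 were 3.54-fold and 2.29-fold higher and the syndecan Sdc1 2.17-fold higher (adjusted p at most 0.000169 in limma's test). Of 14 measured enzymes that build or trim the chains 5 rose and 0 fell, with a median of 0.22. Among them were the polymerase Ext2 (1.69-fold), the sulfatase Sulf1 (1.67-fold), the sulfotransferase Hs2st1 (1.55-fold) and the polymerase Ext1 (1.38-fold). The call of Ext1 was lost without PT replicate 1, OPN replicate 2 or OPN replicate 3 (adjusted p from 0.0549 to 0.0809), and leaving out any 1 of these arrays left 3 enzymes called.

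Co-receptors and binding proteins were mostly uncalled, with 2 of 11 higher, 0 lower and a median of 0.07, although 1, Lrp1, was called lower in 4 of the alternative fits. Lrp1, a large endocytic receptor that binds PDGF receptor beta, had 959.8 ± 70.4 units on PT and 782 ± 37.3 on OPN (SD, n = 3, adjusted p = 0.0829 in limma's test) and was named after its values were seen. Nrp2, a neuropilin that serves several growth factor receptors, had 281 ± 9.52 units on PT and 923 ± 59.8 on OPN (SD, n = 3), a 3.16-fold difference (adjusted p = 3.72e-06). Flrt2, a membrane protein that interacts with FGF receptors, was 1.70-fold higher (adjusted p = 0.00539). In the list of adaptors and the kinase cascade 2 of 21 genes rose (9.52%, near the 7.62% of all named genes), 0 fell and the median was 0.10. These were the kinase gene Src (1.38-fold) and the adaptor gene Shc1 (1.30-fold), and the Shc1 call was lost without PT replicate 2, PT replicate 4, OPN replicate 3 or OPN replicate 4 (adjusted p from 0.0523 to 0.0866), which left 1 call in each case.

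In the list of feedback inhibitors and transcriptional targets 6 of 14 genes rose (42.9%, beside 7.62% of all named genes). In this list 0 fell and 8 did not pass, and the median was 0.28. The 6 were all feedback inhibitors, but other feedback inhibitors were not called. Dusp6, Dusp5, Spry3, Spred2 and Spred3 had log2 differences of 0.39, 0.21, 0.22, -0.07 and 0.09 (adjusted p from 0.0721 to 0.717 in limma's test). They too were named after their values were seen. The transcription factor genes Etv1, Etv4 and Etv5, targets of FGF signalling, were not called, with log2 differences of 0.01, -0.08 and -0.14 (adjusted p from 0.466 to 0.974), and were named after their values were seen. The ubiquitin ligase gene Cblb was 1.39-fold higher, the Sprouty gene Spry1 1.35-fold, the Sprouty-related gene Spred1 1.41-fold and the phosphatase gene Dusp4 1.30-fold (adjusted p from 0.00425 to 0.0136). The Dusp4 call was lost without PT replicate 2, OPN replicate 2 or OPN replicate 3 (adjusted p from 0.0521 to 0.0749), and without either of these OPN replicates 3 genes of the list were called. Of 7 measured proteases that process PDGFs 3 rose and 0 fell, with a median of 0.08. They were Pcsk6 (1.33-fold), Plat, the tissue plasminogen activator that cleaves PDGF-C (1.48-fold), and Pcsk5 (1.37-fold). The Plat call was lost without PT replicate 2, PT replicate 4, OPN replicate 2 or OPN replicate 3 (adjusted p from 0.0573 to 0.0727), that of Pcsk5 without each array except OPN replicate 4 (adjusted p from 0.0567 to 0.145) and that of Pcsk6 without OPN replicate 3 (adjusted p = 0.0518). In this list 0 genes were called without OPN replicate 3 and 1 without PT replicate 2, PT replicate 4 or OPN replicate 2.

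**Figure D4:**
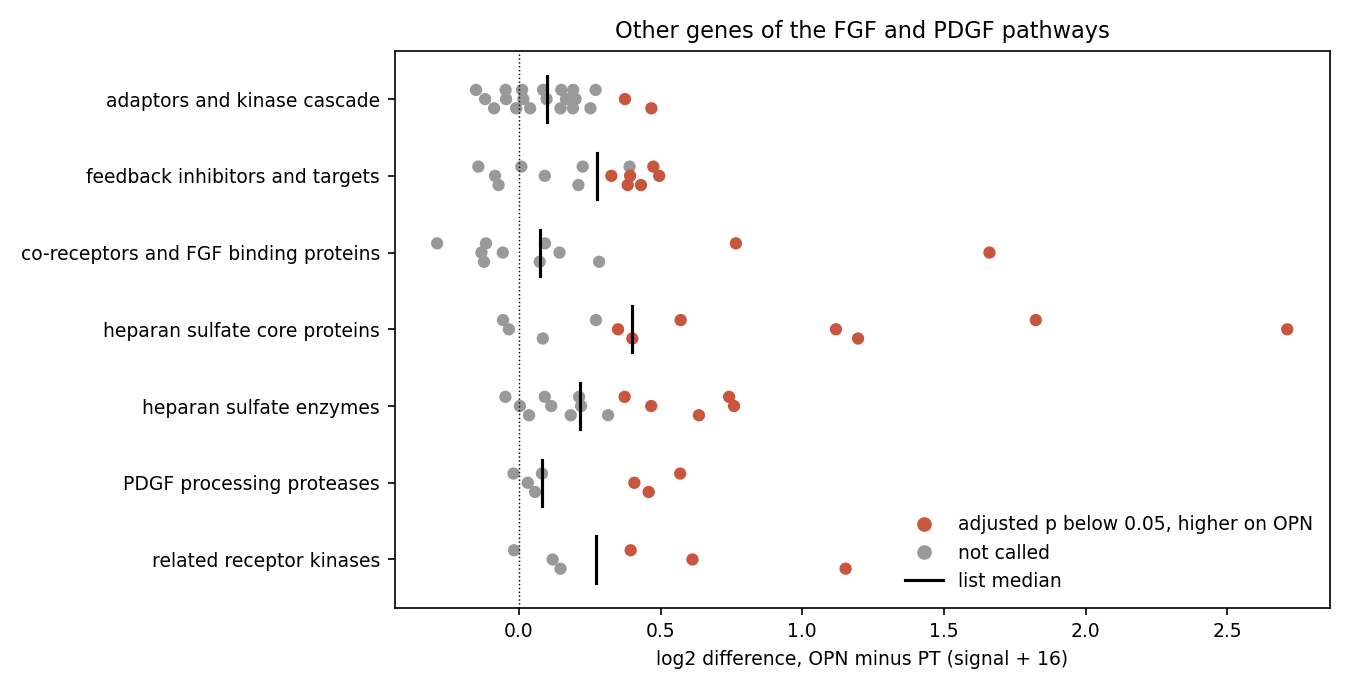
Log2 difference, OPN minus PT, on the log2(signal + 16) scale for every measured gene of the 7 pathway lists. Points are genes, colour marks an adjusted p below 0.05, and bars are list medians; heparan sulfate core proteins reach furthest, with Sdc2 at 2.71.

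Markers of several cell types moved on the same arrays, where 7.62% of all named genes rose and 1.12% fell. The summed signal of 12 stromal fibroblast markers lay between 2369 and 2499 units on PT and between 10572 and 11465 on OPN, and 12 of them rose. The 12 osteoblast markers summed to between 11242 and 12245 units on PT and between 57407 and 64147 on OPN, and 12 rose. Of 12 pericyte and smooth muscle markers 6 rose, with sums from 8148 to 8847 units on PT and from 9219 to 9836 on OPN. The highest single signal in this list was 7021 units, so 1 bright marker can make up most of such a sum. The median log2 difference of the list was 0.32. Endothelial markers (9 of 12 higher) summed to between 2512 and 2639 units on PT and between 3785 and 4000.1 on OPN. Platelet markers (7 of 8 higher) summed to between 4999 and 5363 units on PT and between 7708 and 8229 on OPN. Osteoclast markers (7 of 10 higher) summed to between 11633 and 13956 units on PT and between 29370.3 and 32916 on OPN, while macrophage markers (8 of 13 lower) summed to between 14463 and 15189 on PT and between 10510.4 and 11246 on OPN. Chondrocyte markers (1 higher and 1 lower of 13) lay between 5066 and 5412 units on PT and between 5227 and 5455 on OPN. The granulocyte markers (0 of 11 called, 11 with a difference above 0) had a median log2 difference of 0.17. They summed to between 8952 and 13717 units on PT and between 12750 and 14085 on OPN. The erythroid markers (2 of 8 lower, 8 with a difference below 0) had a median of -0.25. Their sums lay between 62944 and 70591 units on PT and between 57288 and 61564 on OPN. No measured marker of these lists was at 0 on any array, and the part of these cell types in the receptor and ligand differences was not tested.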

How the data were processed

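Gene expression was measured on Affymetrix Rat Gene ST arrays from 300 ng of RNA per the labels' protocols. The deposited table holds linear intensity values, 1 per probe set and array, made by the authors with Affymetrix Expression Console and PLIER per the submitters' processing notes. The versions, background correction and scaling, and a genome build, were not given in the sources used here. Rows were named through the platform annotation, in which 15310 of 29215 rows had 1 symbol, 323 several and 13582 none. For a gene with several rows the row with the highest mean was used. All 34 member symbols matched the GRCr8 gene table by Entrez identifier.

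Values were transformed as log2(intensity + 16), and a fold on this scale understates the change of dim rows. Rows were fitted in limma 3.58.1 (lmFit, eBayes; R 4.3.3) with a term for the coating and no filter. A row with a Benjamini-Hochberg adjusted p below 0.05 over all rows is called. The fit was tested on simulated data. Intervals of differences are 95% intervals of single rows. Other values were computed in Python 3.11.15. The members, the 7 pathway lists and the 10 marker lists were chosen with earlier results of these data known. Each member may be named, with up to 4 called genes of a pathway list by smallest p. Numbers 2 and 4 name a replicate of each coating, without a label that ties them to a common cell preparation, and the fit has no block for them. The 14 alternative fits covered the offset, scaling, a filter on dim rows, the spread model, the replicate block, each array left out and the row used per gene.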

Additional observations from a re-analysis of the deposited data

How the results depend on the processing

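The 9 members called higher were called in each of the 6 fits that left out 1 array, with either scaling of the arrays, with offsets of 1 and 64, with a trended and robust spread and with rows averaged per gene, and 0 members were called lower in any of the 14 alternative fits. With only rows at or above the median row, 18 of the 34 members were fitted, without Pdgfa, Pdgfd and Pdgfrl, and 6 were called, of which 1 was a ligand. With the replicate number as a block 7 members kept their call, Fgfr3 (adjusted p = 0.152) and Pdgfa (adjusted p = 0.0804) lost theirs, and 666 rows of the table were called in place of 1700; over all alternatives their adjusted p ranged from 0.000504 to 0.152 and from 0.000601 to 0.0804. The same-numbered arrays shared little, with correlations of their deviations from the group means of -0.08 (number 2) and 0.07 (number 4). The highest value among differently numbered arrays was 0.18 (PT replicate 1 with OPN replicate 2). The arrays were not treated as pairs, and whether a number marks a shared preparation is not given in the sources used here. Of the 22 named pathway genes 11 lost their call with the block and 1, Pcsk5, with an offset of 1. The block also lowered the calls in the pathway lists, from 2 to 0 (adaptors and cascade), 6 to 0 (feedback), 7 to 4 (heparan sulfate core proteins), 5 to 3 (its enzymes), 3 to 1 (proteases) and 3 to 1 (related kinases). With only the brighter rows 1 related kinase was called, the rows of Flt1 and Flt4 being too dim to be fitted. The co-receptor gene Lrp1 was called lower with that filter, an offset of 64, equal medians or the trended spread. Without 1 array, 1023 to 1486 rows were called, the lowest counts being 1023 without OPN replicate 3 and 1080 without OPN replicate 2. Calls higher on OPN made up 86.8% of all calls, 68.4% with equal array medians and 64.6% with quantile normalisation. The median difference of the receptors was 0.83 with an offset of 64, 1.25 with only the brighter rows and 1.31 over the 6 receptor kinases, and that of FGF and PDGF ligands together, 0.06, moved by less than the spread between replicates but was -0.0066 with equal medians and -0.0053 with quantile normalisation. Changes of sign occurred for 17 members that were not called and for 0 of the called ones. With equal array medians these were Fgfr4 (-0.039), Fgfrl1 (-0.040), Fgf9 (-0.0053), Fgf12 (-0.022), Fgf13 (-0.027), Fgf17 (-0.013), Fgf20 (-0.0079), Fgf21 (-0.037) and Fgf23 (-0.0031). With quantile normalisation the same genes had -0.050, -0.052, -0.00028, -0.016, -0.0094, -0.022, -0.0024, -0.036 and -0.0081. With the replicate block Fgf2 (0.11), Fgf5 (0.062), Fgf10 (0.0039), Fgf16 (0.018), Fgf18 (0.0025), Fgf19 (0.081) and Fgf22 (0.047) turned above 0 and Fgf13 (-0.0021) and Fgfrl1 (-0.015) below. Leaving out 1 array gave ranges across 0 for Fgf2 (-0.14 to 0.13), Fgf5 (-0.096 to 0.039), Fgf9 (-0.033 to 0.15), Fgf10 (-0.088 to 0.034), Fgf11 (-0.095 to 0.034), Fgf12 (-0.040 to 0.14), Fgf19 (-0.083 to 0.13), Fgf21 (-0.018 to 0.081), Fgf23 (-0.027 to 0.14), Fgfr4 (-0.015 to 0.098) and Fgfrl1 (-0.039 to 0.10). The cause of these changes was not tested.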

Other observations

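Receptor kinases related to the PDGF receptors, some of them next to a PDGF receptor on the chromosome, differed between coatings by unequal amounts. On GRCr8 the genes Pdgfra, Kit and Kdr are neighbours, with 0 protein-coding genes between Pdgfra and Kit or between Kit and Kdr. Kdr, the main VEGF receptor of endothelium, had 171 ± 14.6 units on PT and 399.8 ± 8.09 on OPN (SD, n = 3), a 2.22-fold difference (adjusted p = 4.25e-05 in limma's test), beside 2.60-fold for Pdgfra. Kit, the stem cell factor receptor of blood progenitors and mast cells, had 200.4 ± 12.1 and 223 ± 6.27 units (SD, n = 3), a log2 difference of 0.15 with a 95% interval from -0.02 to 0.31 (adjusted p = 0.343 in limma's test). Pdgfrb has Csf1r, the M-CSF receptor gene of macrophages and osteoclast precursors, as its neighbour, with 0 protein-coding genes between them. Csf1r had 1337 ± 84.2 units on PT and 1455 ± 133 on OPN (SD, n = 3), a log2 difference of 0.12 with a 95% interval from -0.08 to 0.32 (adjusted p = 0.573 in limma's test), beside 1.25 for Pdgfrb. Kit, Csf1r and Flt3 were named after their values were seen.

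The VEGF receptors rose together, 3 of the 6 related kinases measured, while 0 of the 6 fell and their median log2 difference was 0.27. Flt1, a decoy-like VEGF receptor, was 1.53-fold higher and Flt4, the receptor of lymphatic endothelium, 1.31-fold (adjusted p = 0.000864 and 0.0118 in limma's test). The call of Flt4 was lost without OPN replicate 2 or OPN replicate 3 (adjusted p = 0.0515 and 0.0681). Flt3, a receptor of blood progenitors, had a log2 difference of -0.02 (95% interval from -0.25 to 0.21). Of 12 endothelial markers, a list that holds Kdr itself, 9 rose on the same arrays, and their part in these differences was not tested.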
